A study of Mus musculus with 17 samples.

Results

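The response to stroke and reperfusion was followed in 5 single mouse brains given the catalytic antioxidant AEOL 10150, each on an array of its own, and set against 3 drug control pools that received AEOL 10150 without ischemia. These 8 arrays of the 17 in the series were chosen by their labels: the single brains by a description naming 1 brain, the drug control pools by their titles. Each single brain, numbered 11, 12, 13, 14 and 16, had 1 h of ischemia, then AEOL 10150 intravenously, then 6 h of reperfusion. Each drug control pool joined the mRNA of 6 brains taken 6 h after the injection. The tissue was white and grey matter supplied by the middle cerebral artery. No strain, sex, age or dose was stated. Some labels were at odds: brain 11 was numbered 4 in its title, and drug control pool 1 carried a description that names saline. The series also holds 3 more groups of 3 pools, used here for orientation: control pools given saline, ischemic pools with the same ischemia and reperfusion and no drug named, and treated ischemic pools with ischemia and AEOL 10150. Treated ischemic pool 1 was described without a drug.

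The groups were deposited on different scales. The mean intensity between the 2nd and 98th percentiles was 2500 on each drug control array and between 129.3 and 210.2 on the single brain arrays, a range shared by treated ischemic pools 2 and 3. All arrays were therefore multiplied to 2500, values under an intensity of 109.5 were raised to that floor, and log2 was taken (floor 6.77). Group, deposited scale and single against pooled RNA changed together, so their effects cannot be told apart. Ranked over 12422 probe sets, the single brains correlated with each other at a Spearman rho of 0.961 to 0.973, the drug control pools with each other at 0.927 to 0.948, and the single brains with the drug control pools at 0.912 to 0.952. Treated ischemic pool 3 was as close to the single brains as they were to each other, at 0.966 to 0.975. The median SD of a probe set was 0.24 among single brains and 0.35 among drug control pools. For the actin control, the signal at the 3' end over that at the 5' end, which rises as RNA degrades, was 1.38 to 1.60 in single brains and 1.15 to 2.14 in drug control pools. Neuron markers were present on all 8 arrays, with a summed intensity of 650028 to 710904 in single brains and of 568963 to 694316 in drug control pools.

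Ischemic brain tissue is known to switch on several layers of stress genes. Heat shock factors bind heat shock elements and drive chaperones such as inducible Hsp70, which refold or hold damaged proteins. Immediate early genes encode transcription factors made within minutes of calcium entry or synaptic release. Chemokines from glia and vessel walls draw leukocytes into reperfused tissue.

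The promoters of 3 inducible chaperones with a heat shock element, and of a stress factor and a chemokine that rose with them, are shown so that the known binding letters can be seen beside the values. Each is 250 bases before to 50 bases after the start of transcription, from RefSeq on build GRCm38.p6. Capitals in the first 3 mark the heat shock element searched (GAANNTTC or TTCNNGAA, which reads each strand), in Atf3 the cyclic AMP response element core TTACGTCA (searched as TGACGTCA or TGACGTAA on both strands), and in Cxcl1 a match to an NF-kB site. Hspa1a lies at chr17:34972107-34972406, Hspa1b at chr17:34959189-34959488, Hsph1 at chr5:149636287-149636586 and Atf3 at chr1:191183284-191183583, all on the minus strand, and Cxcl1 at chr5:90890995-90891294 on the plus strand.
Hspa1a: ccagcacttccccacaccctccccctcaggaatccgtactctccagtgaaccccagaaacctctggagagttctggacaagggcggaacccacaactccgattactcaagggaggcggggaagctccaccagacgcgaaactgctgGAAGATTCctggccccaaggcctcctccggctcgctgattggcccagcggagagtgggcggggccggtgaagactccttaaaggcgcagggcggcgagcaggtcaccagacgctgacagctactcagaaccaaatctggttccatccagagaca
Hspa1b: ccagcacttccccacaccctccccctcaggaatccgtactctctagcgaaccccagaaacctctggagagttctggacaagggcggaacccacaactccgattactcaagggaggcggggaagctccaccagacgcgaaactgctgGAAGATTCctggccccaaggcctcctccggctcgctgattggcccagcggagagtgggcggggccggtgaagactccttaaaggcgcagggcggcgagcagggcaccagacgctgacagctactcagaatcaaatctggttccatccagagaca
Hsph1: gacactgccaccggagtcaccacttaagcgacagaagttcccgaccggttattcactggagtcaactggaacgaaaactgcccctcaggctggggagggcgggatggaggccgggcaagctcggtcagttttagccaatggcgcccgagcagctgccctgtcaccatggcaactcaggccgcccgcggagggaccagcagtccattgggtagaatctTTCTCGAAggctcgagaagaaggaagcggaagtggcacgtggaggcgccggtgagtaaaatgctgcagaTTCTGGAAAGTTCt
Atf3: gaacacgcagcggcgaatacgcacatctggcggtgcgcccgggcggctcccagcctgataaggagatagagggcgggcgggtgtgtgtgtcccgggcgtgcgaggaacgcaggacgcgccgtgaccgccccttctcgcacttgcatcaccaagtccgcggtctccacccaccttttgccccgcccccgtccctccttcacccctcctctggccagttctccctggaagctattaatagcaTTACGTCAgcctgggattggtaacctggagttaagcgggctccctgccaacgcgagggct
Cxcl1: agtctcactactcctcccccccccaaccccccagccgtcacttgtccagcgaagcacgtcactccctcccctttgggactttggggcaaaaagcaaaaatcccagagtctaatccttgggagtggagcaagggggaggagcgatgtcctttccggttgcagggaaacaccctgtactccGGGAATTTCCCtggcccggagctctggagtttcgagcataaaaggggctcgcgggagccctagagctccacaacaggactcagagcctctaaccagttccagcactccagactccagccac
The Hspa1a and Hspa1b windows were identical at 296 of 300 bases, and the genes are near copies, so their probe sets may not separate them. A heat shock element was found in 4 of the 7 heat shock genes that passed the test (57.1%: Hspa1a, Hspa1b, Hsph1 and Bag3), against 16.97% of all 27025 promoters. Of the 18 genes with the largest rises, 13 had a promoter sequence. The element was in 4 of them (30.8%, Hspa1a, Hspa1b, Ap2s1 and Sri). The cyclic AMP response element core was in 2 (15.4%, Atf3 and Ppp1r15a) against 2.59% of all promoters. The NF-kB site was in 4 (30.8%, Hspa1a, Hspa1b, Tpm3 and Fos) against 9.55%, and the TATA box in 4 (30.8%) against 15.7%. The CArG box of the serum response element was in 0 of the 13, against 1.81%. The near copies Hspa1a and Hspa1b count as 2 genes in the heat shock element and NF-kB counts. A match describes these letters only.

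In the single brains, inducible Hsp70 mRNA was 17.3-fold to 23.2-fold its level in the drug control pools, and the transcription factors Fos, Atf3, Junb, Egr1 and Nr4a1, the growth arrest genes Gadd45a, Gadd45b and Gadd45g, and the chemokines Ccl2, Ccl3, Ccl4 and Cxcl1 rose with it. The dopamine receptor Drd2 fell. Of 9907 probe sets tested, 288 were higher (2.91%) and 357 lower (3.60%) in single brains, 645 in all (6.51%), by limma with Benjamini-Hochberg adjustment at 0.05. At an unadjusted p under 0.05 the count was 2783, and at 2-fold or more the calls were 179 higher (1.81%) and 184 lower (1.86%). In every called probe set the groups did not overlap; over all tested, 8.90% did not overlap with the brains higher and 12.1% with the brains lower. The split depended on the scaling: 568 higher and 201 lower when arrays were set to one median, 315 and 258 after quantile normalization, and 114 and 39 relative to the median shift of the values as deposited. Without drug control pool 1, the one described as given saline, 422 were higher and 518 lower; without pool 2 the counts were 406 and 577, and without pool 3 they were 137 and 97, and leaving out any 1 brain gave 117 to 153 higher and 147 to 175 lower.

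Heat shock genes come first by size. Hspa1b, an inducible Hsp70, was at log2 intensities of 12.40, 10.72 and 11.08 in drug control pools 1, 2 and 3, and at 15.95, 16.03, 15.80, 16.09 and 15.79 in brains 11, 12, 13, 14 and 16. The brains lay close together and above every drug control pool. The difference was 4.53 (SE 0.34), 23.2-fold, with a limma adjusted p of 0.000656. Hspa1a, its near copy, was at 12.90, 11.99 and 11.57 in the drug control pools and at 16.28, 16.36, 16.03, 16.48 and 16.18 in the brains, 17.3-fold higher (difference 4.11, SE 0.28, limma adjusted p 0.000564). Drug control pool 1, the one described as given saline, had the highest level of both genes among the drug control pools. The same genes were higher by 4.36 to 4.72 (Hspa1b) and 4.09 to 4.15 (Hspa1a) in each treated ischemic pool over the drug control mean.

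Their partners rose less. Dnajb1, an Hsp40 that feeds substrates to Hsp70, was at 12.17, 11.47 and 11.73 in the drug control pools and 13.65, 13.91, 13.45, 14.32 and 13.95 in the brains, 4.19-fold higher (limma adjusted p 0.00464). Bag3, the cochaperone that hands Hsp70 clients to autophagy, was at 10.19, 10.37 and 9.76 against 11.72, 12.28, 11.32, 12.51 and 11.99, 3.63-fold higher (limma adjusted p 0.0132). Serpinh1, the collagen chaperone of the endoplasmic reticulum, was at 9.68, 9.30 and 9.49 against 11.38, 12.01, 11.52, 11.95 and 11.37, 4.47-fold higher (limma adjusted p 0.0018). The groups did not overlap in any of these genes, and brain 13 was the lowest brain in Dnajb1 and Bag3. Hsph1, an Hsp110 exchange factor, rose 1.89-fold (limma adjusted p 0.0252) and Stip1, which links Hsp70 to Hsp90, rose 1.41-fold (limma adjusted p 0.0438). Of the 29 heat shock genes and cochaperones tested, these 7 rose and none fell, beside 2.91% and 3.60% of all probe sets. The list's median difference was 0.40 against -0.05 for all probe sets. Hspa8 (0.20), Hsp90aa1 (0.43), Hspd1 (0.40) and Dnaja1 (0.25) did not pass the test. Of the 7, Hspa1a, Hspa1b, Dnajb1, Bag3 and Serpinh1 passed in each fit that left out 1 of the 8 arrays. Hsph1 missed the threshold without drug control pool 3 or any brain other than 13 (highest adjusted p 0.0799), and Stip1 without any array other than drug control pool 2 (highest adjusted p 0.105).

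**Figure D1:**
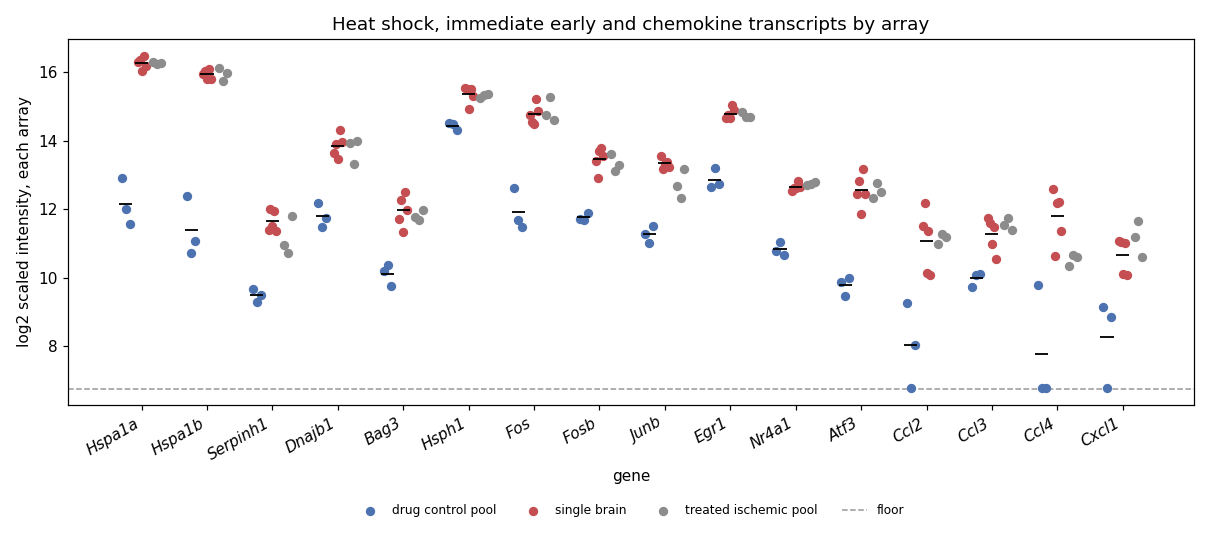
Log2 intensity of 16 stress genes on each drug control pool (blue), single brain (red) and treated ischemic pool (grey), with the group mean as a black bar and the floor dashed. Hspa1a and Hspa1b sit between 15.79 and 16.48 in the single brains and no higher than 12.90 in the drug control pools, while Ccl2 and Ccl4 spread widely in both groups.

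Of 33 immediate early genes tested, 14 rose and none fell, beside 2.91% and 3.60% of all probe sets. By sign 29 were higher and 4 lower, with a median difference of 0.82 against -0.05 for all probe sets. At an unadjusted p under 0.05, 21 were higher, beside 2783 of all 9907 probe sets in either direction. Fos, the AP-1 partner of the Jun proteins, was at 12.62, 11.68 and 11.48 in the drug control pools and at 14.73, 14.55, 14.47, 15.23 and 14.86 in the brains. The lowest brain was above the highest drug control pool, and the difference was 2.84 (SE 0.29), 7.16-fold, limma adjusted p 0.00276. A second Fos probe set near the floor differed by -0.12 and did not pass. Junb rose 4.21-fold and Nr4a1, an orphan nuclear receptor, 3.54-fold (limma adjusted p 0.000656 each). Egr1, a zinc finger factor of synaptic activity, was at 12.64, 13.20 and 12.74 against 14.65, 14.74, 14.65, 15.03 and 14.88, a tight set of brains 3.80-fold higher (limma adjusted p 0.00138). Fosb rose 3.26-fold (limma adjusted p 0.00569). Atf3, a stress-induced repressor, was at 9.88, 9.47 and 10.01 against 12.45, 12.83, 11.86, 13.16 and 12.44 by its brighter probe set, 6.78-fold higher (limma adjusted p 0.00328), and its other probe set rose 7.82-fold (limma adjusted p 0.0123).

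The remaining immediate early genes that rose were Jun, Jund, Ier2, Ier3, Dusp1, Klf6, Btg1 and Ccn1, between 1.38-fold (Jund) and 3.09-fold (Ccn1). Egr2 (0.19), Fosl2 (-0.09), Homer1 (-0.66) and Zfp36 (0.52) did not pass. Brain 13 had the lowest Egr2, at 9.79 against 11.72 to 12.03 in the other brains. Nfil3 was split by probe set: the brighter one differed by -0.18 and did not pass, and the other rose by 2.00 (limma adjusted p 0.00338). Of the 14 genes, 7 passed with any 1 array left out, among them Fos, Fosb, Junb, Egr1, Nr4a1 and Atf3, and 4 missed the threshold in 5 or more of the 8 such fits.

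The Gadd45 genes, which couple stress kinases to growth arrest and DNA repair, all rose. Gadd45b was at 9.39, 9.38 and 9.16 in the drug control pools and at 12.39, 12.42, 11.77, 12.37 and 12.09 in the brains by its brighter probe set, 7.48-fold higher (limma adjusted p 0.000564). Its other probe set, at the floor in drug control pools 1 and 3, rose 18.1-fold (limma adjusted p 0.00565). Gadd45g rose 3.25-fold (limma adjusted p 0.00338) and Gadd45a 3.18-fold (limma adjusted p 0.00565). Each passed with any 1 array left out. Of the 29 genes of the Gadd45, p53 and cell death list, these 3 rose, and Xiap, a caspase inhibitor, and Sesn1, a p53 target, fell 3.27-fold and 1.45-fold (limma adjusted p 0.0434 and 0.0468). The list's median was 0.09. The shares of all probe sets called were 2.91% higher and 3.60% lower. Of 20 unfolded protein response genes, 3 passed as higher. Ppp1r15a, the phosphatase subunit that restores translation, rose 7.52-fold and Hspa5, the chaperone BiP, 1.48-fold (limma adjusted p 0.0408 and 0.0431). Trib3, a pseudokinase induced by stress, rose at least 4.08-fold from the floor in every drug control pool. It had no spread there and entered the test through the brains, so no p is given for it. Outside the Gadd45 genes, each called gene of this paragraph missed the threshold in at least 3 of the 8 fits with 1 array left out, Hspa5 and Sesn1 in 7.

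Among inflammatory genes the spread was wider. Ccl4, a chemokine for monocytes and T cells, was at 9.78 in drug control pool 1 and at the floor in pools 2 and 3. In the brains it was at 12.60, 10.64, 12.19, 12.22 and 11.38. All brains were above all pools, by 4.03 on average (SE 0.76), 16.3-fold, limma adjusted p 0.0253. Drug control pools were 2.81 below the saline control pools for Ccl4, so that against the saline control pools, a comparison added after the data were seen, the brains were 1.22 higher, which did not pass (limma adjusted p 0.499), and ischemic pools differed from control pools by 0.28. Ccl2, the main monocyte chemoattractant, was at 9.27, the floor and 8.04 against 11.51, 12.19, 10.14, 11.36 and 10.08, 8.15-fold higher (limma adjusted p 0.0401), with brains 13 and 16 lowest. Ccl3 was at 9.74, 10.09 and 10.11 against 11.75, 11.60, 10.98, 11.49 and 10.56, 2.46-fold higher (limma adjusted p 0.04). Cxcl1, a neutrophil chemoattractant, was at 9.14, the floor and 8.86 against 11.07, 11.05, 10.10, 11.02 and 10.07, 5.29-fold higher (limma adjusted p 0.0434), again lowest in brains 13 and 16. Ccl9 rose 5.05-fold and Il1a, an alarm cytokine, 3.41-fold (limma adjusted p 0.0489 and 0.0408).

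Of 22 cytokines and chemokines tested, these 6 rose and none fell, beside 2.91% and 3.60% of all probe sets. The list's median was 0.64. None of the 6 passed against the saline control pools, where Ccl2 was 2.76, Ccl3 1.88 and Cxcl1 2.58 higher (limma adjusted p 0.0675, 0.0714 and 0.0809). None passed in every fit with 1 array left out, and 5 of them missed the threshold in 5 or more of the 8. Of these fits Ccl2 passed only the one without drug control pool 1 and otherwise reached an adjusted p of up to 0.103; Ccl4 missed it without drug control pool 3 or brains 11, 13 or 14 (highest adjusted p 0.0845). Il6 was at the floor in all drug control pools and in brains 13 and 16, and at 7.16, 7.46 and 7.94 in brains 11, 12 and 14. Socs3, the feedback inhibitor of cytokine signalling, rose 3.58-fold (limma adjusted p 0.0141). It was 1 of 27 cytokine receptor and feedback genes to pass, a share near the 2.91% of all probe sets called higher. Cd14, the endotoxin coreceptor of myeloid cells, rose 2.19-fold (limma adjusted p 0.00975). Both passed with any 1 array left out. In bulk tissue, more cells of a type and more RNA per cell cannot be told apart.

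Vessel and coagulation genes moved in part. Anxa2, a cell surface receptor that helps make plasmin, was at 9.72, 10.38 and 9.84 in the drug control pools and at 12.52, 12.80, 12.07, 12.67 and 11.77 in the brains, 5.22-fold higher (limma adjusted p 0.00472). Anxa1, an annexin that restrains leukocytes, rose 3.87-fold (limma adjusted p 0.01), and Procr, the endothelial protein C receptor, 2.00-fold (limma adjusted p 0.028). These were 3 of 14 genes, beside 2.91% of all probe sets, none fell, and the median was 0.65. Procr missed the threshold without drug control pool 3 or any brain other than 16 (highest adjusted p 0.0799). Anxa2 and Anxa1 were higher in treated ischemic pools 1, 2 and 3 by 0.81, 1.26 and 2.40, and by 0.61, 1.37 and 1.78, so pool 3 was again nearest the brains. Among 29 endothelial and mural genes, 24 were higher and 5 lower, with a median of 0.40. At an unadjusted p under 0.05, 12 were higher and 2 lower, beside 2783 of all 9907 probe sets in either direction. The summed intensity was 38677 to 48067 in the brains and 32562 to 38464 in the drug control pools. Of the 29, Procr passed as higher. Sox18, an endothelial transcription factor, and Apln, a vessel peptide, fell 3.10-fold and 1.83-fold (limma adjusted p 0.00605 and 0.0475). Over all probe sets 2.91% were called higher and 3.60% lower. Sox18 passed with any 1 array left out, and Apln in 1 of the 8 fits. Against the saline control pools Sox18 differed by -0.62 and Apln by -0.25, and neither passed (limma adjusted p 0.469 and 0.883).

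How far the single brains followed ischemia without the drug was read from the ischemic pools against the control pools. The differences there use no single brain or drug control array. The filter and the spread came from all pooled arrays, drug control pools included, so the calls are not fully independent of the main comparison. In that fit 22 of 10259 probe sets passed, all higher (0.214%). Of these, 21 were tested in the single brains and 20 were higher there; 14 passed as higher. The 14 were both Hsp70 genes, Dnajb1, Bag3, Fos, Fosb, Egr1, Nr4a1, Atf3, Gadd45b, Gadd45g, Ccl3, Socs3 and Procr. Side by side, Hspa1b differed by 4.53 in single brains and 4.64 in ischemic pools, Egr1 by 1.93 and 1.89, Nr4a1 by 1.82 and 1.79, and Fos by 2.84 and 3.37. The difference between these responses was -0.11 (SE 0.62) for Hspa1b, 0.04 (SE 0.25) for Egr1, 0.03 (SE 0.29) for Nr4a1 and -0.53 (SE 0.49) for Fos, and none of the 4 passed limma's test (adjusted p 0.951, 0.954, 0.969 and 0.631). Tnfaip6, S100a8, Nfkbiz and Rrad passed in the ischemic pools (2.25, 2.15, 1.68 and 1.49) and were 0.86, 0.52, 0.39 and 0.80 higher in the single brains, where they did not pass. Their differences of response, -1.39, -1.64, -1.29 and -0.69, did not pass either (limma adjusted p 0.221, 0.235, 0.131 and 0.45).

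**Figure D2:**
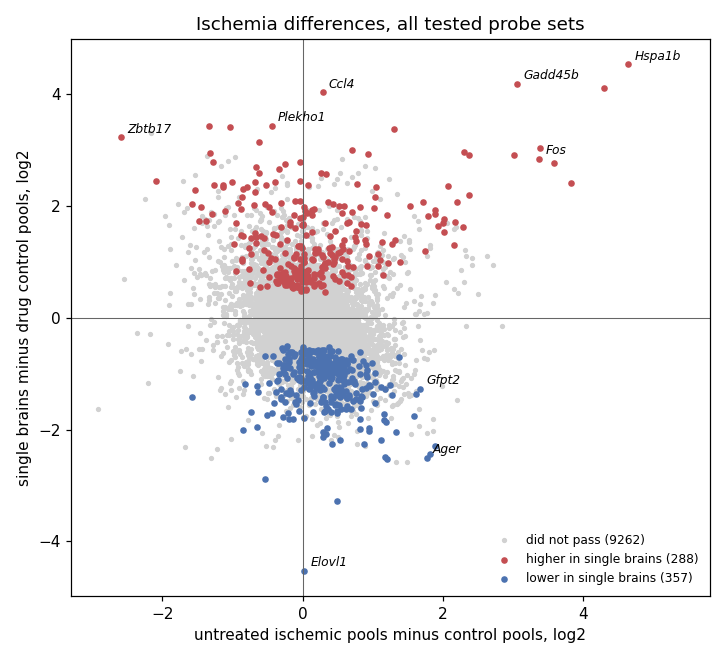
Log2 difference of each probe set between ischemic and control pools (x axis) and between single brains and drug control pools (y axis), with the 288 called higher in red, the 357 called lower in blue and the other 9262 in grey. A group of red points with Hspa1a and Hspa1b at its end lies high on both axes, while most red and blue points lie near 0 on the x axis.

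As a whole, the probe sets called in the single brains were centred near or above 0 in the ischemic pools. Over the 288 called higher, the median difference was 1.22 in single brains, 0.0013 in ischemic against control pools, and 0.25, 0.42 and 1.04 in treated ischemic pools 1, 2 and 3 over the drug control mean. In ischemic against control pools 50.3% of the 288 were higher, against 53.4% of all tested. Over the 357 called lower, the medians were -1.02 in single brains, 0.31 in ischemic against control pools, and -0.05, -0.19 and -0.80 in treated ischemic pools 1, 2 and 3. Treated ischemic pools 2 and 3 both shared the brains' deposited scale, and pool 3 was the one nearest to them. The drug control pools themselves differed from the control pools by a median of -0.33 over the 288 and 0.61 over the 357. Both sets were chosen on these drug control pools, which are therefore low over the 288 and high over the 357 in part by selection. The treated pool medians share the same drug control mean. With the saline control pools in place of the drug control pools, a comparison added after the data were seen, 39 probe sets were higher and 5 lower, of which 31 and 4 were among the calls above.

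A smaller set was higher in both comparisons by size. Of the 288, 40 probe sets of 36 genes were also over 1 log2 higher in ischemic than control pools, where 14 of the 40 passed. Being chosen on both comparisons, they are high in both by selection, and the treated pool values share the drug control mean. Their median was 1.89 in single brains, 1.81, 1.53 and 1.85 in the treated ischemic pools, and 1.91 in the ischemic pools. They held both Hsp70 genes, Fos, Fosb, Jun, Junb, Atf3, Gadd45b, Gadd45g, Ccl2, Ccl3, Ccl9 and Cxcl1, but not Gadd45a (0.83 in ischemic against control pools) or Ccl4 (0.28), and also Id1, a differentiation inhibitor, Emp1, a membrane protein, and Gjb2, a gap junction protein. At the other end, 17 of the 288 were over 1 log2 lower in ischemic than control pools. Against both the drug control and the saline control pools, the probe sets that passed as higher included Hspa1b (4.53 and 4.51), Hspa1a (4.11 and 4.17), Fos (2.84 and 2.81), Atf3, Gadd45b, Dnajb1, Bag3, Junb, Fosb, Egr1, Nr4a1, Serpinh1, Gjb2 and P4ha1, and those lower were Pde1a, Pbx3, Tenm3 and Elovl1.

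**Figure D3:**
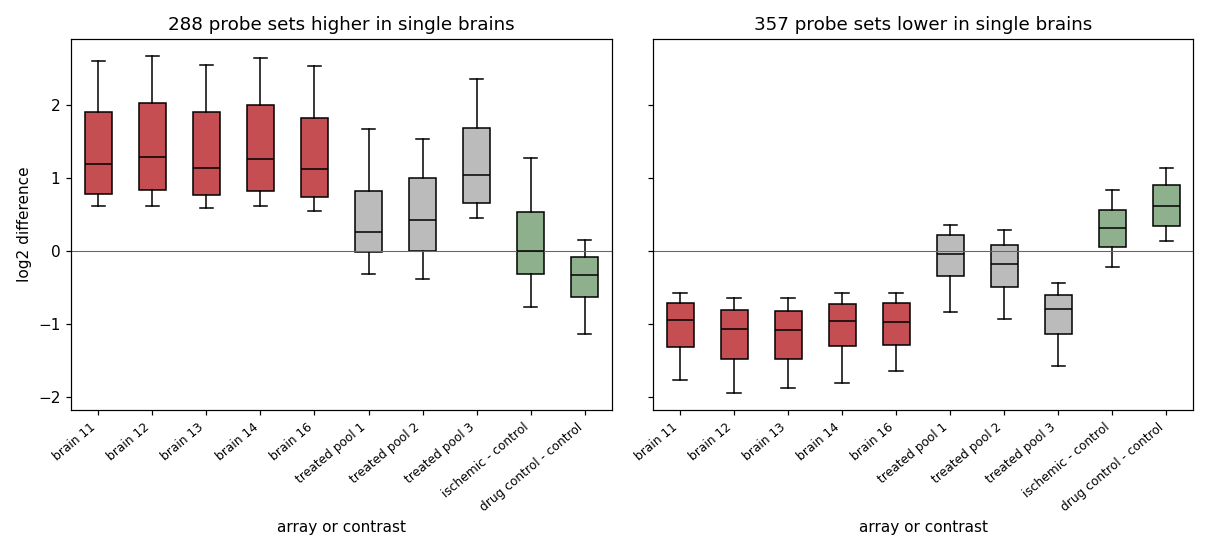
Log2 differences over the 288 higher (left) and 357 lower (right) probe sets. Red boxes are the single brains and grey boxes the treated ischemic pools, each against the drug control mean. Green boxes are ischemic minus control and drug control minus control pools. Boxes span the quartiles with the median, whiskers the 10th to 90th percentiles. Medians are 1.12 to 1.28 and -0.95 to -1.08 in the 5 brains, and nearest to these in treated ischemic pool 3. The brains and the drug control pools were used to choose the sets.

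When all 17 arrays were fitted by limma with the deposited scale as a block, only Tcirg1, a proton pump subunit, passed (2.96). Hspa1b (4.79), Hspa1a (4.16) and Egr1 (2.06) then had an adjusted p of 0.0528 each, and Fos (2.64) one of 0.426. The sign was kept by 268 of the 288 higher and 326 of the 357 lower probe sets. Without the block, Tcirg1 in the brains was 1.802 above the drug control pools and 1.802 above the saline control pools. Equal values arise where both control groups sit at the floor with no spread, so no p is given for it.

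Several of the largest rises lay outside the stress genes and did not pass in ischemia without the drug. Zbtb17, a zinc finger partner of Myc, was at 7.83 in drug control pool 1 and at the floor in pools 2 and 3, and at 10.43, 10.05, 11.41, 9.70 and 10.19 in the brains, 9.38-fold higher (limma adjusted p 0.00654). In ischemic against control pools it differed by -2.59, which did not pass. Mark4, a microtubule affinity kinase, was at 6.91, the floor and 7.75 against 9.96, 10.61, 9.75, 10.18 and 10.23, 8.01-fold higher (limma adjusted p 0.00157). Pnoc, the nociceptin precursor, was at 7.11 and otherwise at the floor against 9.37, 9.73, 9.03, 9.81 and 9.46, 6.03-fold higher (limma adjusted p 0.000751). In each of the 3 genes treated ischemic pool 3 was the treated pool nearest the brains, at 2.83, 2.60 and 1.60 over the drug control mean, with pools 1 and 2 at -0.35 and -0.35, 1.05 and -0.37, and -0.11 and 0.59. All 3 genes had drug control values at the floor and met the filter through the brains. Their folds are therefore least values, and their p depends on the floor. With that limit, all 3 passed with any 1 array left out. None passed against the saline control pools. There Zbtb17 was 0.77 higher, Mark4 1.78 and Pnoc 1.26 (limma adjusted p 0.78, 0.119 and 0.335), since the drug control pools lay 2.46, 1.22 and 1.33 below the saline control pools.

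Other large rises were Ap2s1, a clathrin adaptor subunit (8.86-fold), Pold4, a DNA polymerase delta subunit (6.92-fold), and Sri, a calcium-binding protein (6.46-fold), with limma adjusted p of 0.0408, 0.0233 and 0.0192. Each was at the floor in all drug control pools but pool 1 and met the filter through the brains. Their folds and p so depend on the floor, as do those of the rising probe sets of Plxnb2 and Mep1b below. Several rises rested on 1 of a gene's probe sets. Tpm3, a tropomyosin, rose 10.7-fold by a probe set that ran from the floor to 11.06 among drug control pools, and its other probe set differed by -0.72. Kcnj9, a G protein-gated potassium channel, rose 10.4-fold by one and differed by 0.01 by the other. Plxnb2, a semaphorin receptor, differed by 2.93 and -0.48, and Mep1b, a metalloprotease, by 2.78 and 0.62; the second value in each pair did not pass. Tpm3 and Ap2s1 missed the threshold when any array but drug control pool 1 was left out (highest adjusted p 0.127 and 0.117), Plxnb2 without drug control pool 3 or any brain but 16 (0.0771), Pold4 without drug control pool 3 or brains 12 or 14 (0.0778), and Sri without drug control pool 3 (0.068).

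Most of the largest falls had brains at the floor. Elovl1, a fatty acid elongase, was at 10.06, 13.69 and 10.14 in the drug control pools. It was at or just above the floor in every brain, at least 23.0-fold lower (limma adjusted p 0.0192). Its level in treated ischemic pools 1, 2 and 3 differed from the drug control mean by -2.10, 2.21 and -4.52. Igfbp7, an insulin-like growth factor binding protein of vessels, was at 10.41, 11.02 and 10.91 against 8.61, 8.29, 7.95, 8.09 and 9.65, 4.8-fold lower (limma adjusted p 0.0192), and missed the threshold without drug control pool 3 (0.0667). Chrnb2, a nicotinic receptor subunit, was at 9.34, 9.18 and 8.02 and at or near the floor in the brains, at least 4.14-fold lower (limma adjusted p 0.00935). Slc39a4, a zinc importer, fell by 2.04 by one probe set (limma adjusted p 0.00924), while another was 1.26 higher and did not pass. Irf7, an interferon regulator, was at 10.52, 10.52 and 10.77 against 9.54, 9.21, 8.72, 9.22 and 9.29, 2.66-fold lower (limma adjusted p 0.0088). It was the 1 gene of 33 in the interferon list to pass, a share near the 3.60% of all probe sets called lower. The list's median was 0.39. Elovl1, Chrnb2, Slc39a4 and Irf7 passed with any 1 array left out. Against the saline control pools Elovl1 passed (-4.51, limma adjusted p 0.0422). Chrnb2 (-1.14), Slc39a4 (-0.50) and Irf7 (-0.85) did not (limma adjusted p 0.253, 0.827 and 0.247). Elovl1 and Chrnb2 met the filter through the drug control pools, so their folds and p depend on the floor.

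The other large falls, Cd79b, a B cell receptor chain, Ager, a receptor for glycated proteins, H2-Oa, a class II chaperone, C8g, a complement chain, Hoxb7, Tssk2, Gm17811 and Ctrb1, were 4.23-fold to 7.41-fold and all but Hoxb7 had brains at the floor, where a fold change depends on the floor. Each missed the threshold when any of 5 to 7 of the 8 arrays was left out. Of the 357 lower probe sets, 16 were at the floor in all brains, and of the 288 higher, 24 were at the floor in all drug control pools and so had no spread there.

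**Figure D4:**
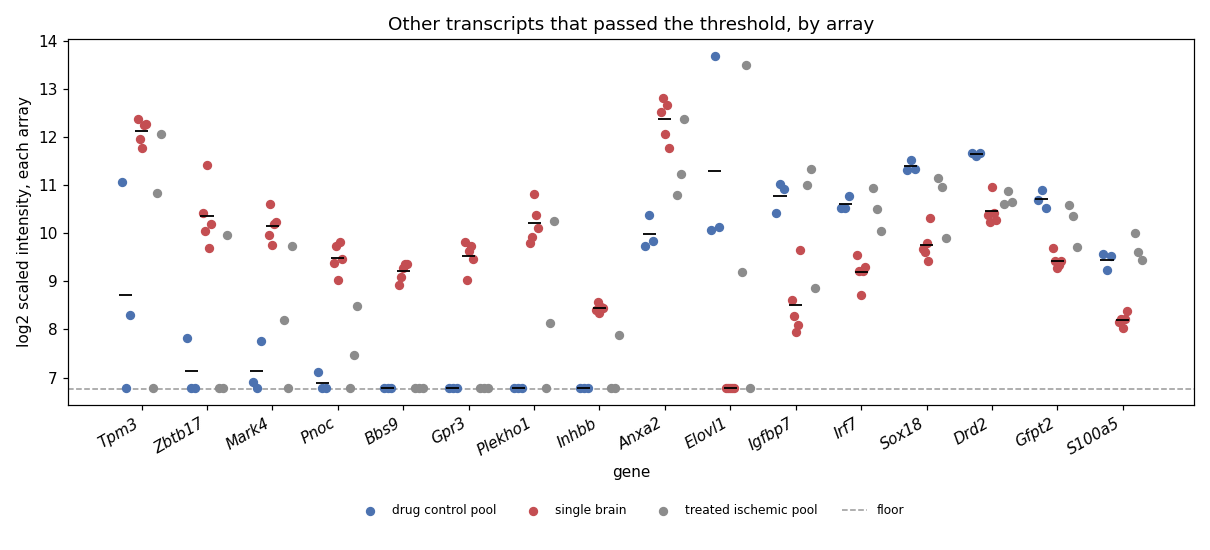
Log2 intensity of 16 genes outside the classical stress response on each drug control pool (blue), single brain (red) and treated ischemic pool (grey), with the group mean as a black bar and the floor dashed. Gpr3, Bbs9, Plekho1 and Inhbb lie at the floor in all 3 drug control pools and above it in all 5 brains; Elovl1 shows the reverse.

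The brains differed from the treated ischemic pools at 10 of 9847 probe sets (0.102%), 5 higher (0.0508%) and 5 lower (0.0508%). Gpr3, a receptor that keeps cyclic AMP high in neurons, was at the floor in all drug control and treated ischemic pools and at 9.81, 9.03, 9.63, 9.74 and 9.46 in the brains, at least 6.76-fold higher. Bbs9, a cilium protein, was likewise at the floor in both and at 8.93, 9.08, 9.28, 9.37 and 9.36 in the brains, at least 5.39-fold higher; its other probe set differed by 0.19 from the drug control pools and did not pass. S100a5, a calcium-binding protein of olfactory neurons, was at 9.57, 9.23 and 9.53 in the drug control pools and at 8.14, 8.21, 8.03, 8.22 and 8.38 in the brains; it was 1.49 lower than in the treated ischemic pools (limma adjusted p 0.019). Without treated ischemic pool 3 the count of 10 became 615.

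The response in single brains differed from that in ischemic pools at 10 of 10411 probe sets (0.0961%), 6 above (0.0576%) and 4 below (0.0384%). Gfpt2, which starts hexosamine synthesis, rose by 1.67 in the ischemic pools (limma adjusted p 0.0189). In drug control pools it was at 10.69, 10.90 and 10.52, and in the brains at 9.69, 9.42, 9.28, 9.34 and 9.41, 2.42-fold lower (limma adjusted p 0.00464). The difference of responses was -2.95 (limma adjusted p 8.10e-05), and the treated ischemic pools were at -0.12, -0.35 and -0.999. Plekho1, a regulator of membrane signalling, was at the floor in the drug control pools and at 9.79, 9.93, 10.82, 10.37 and 10.12 in the brains, at least 10.8-fold higher, and its difference of responses was 3.87. Inhbb, an activin subunit, was at the floor and at 8.41, 8.57, 8.34, 8.46 and 8.46, at least 3.19-fold higher, with a difference of responses of 1.67. Gpr3, Bbs9, Plekho1 and Inhbb had no spread among the drug control pools and entered the tests through the brains, so no p is given for them. Without drug control pool 1 the count of 10 became 21.

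Gene lists for cell types and regions showed what else moved with the groups. For comparison, the median difference of all 9907 probe sets was -0.05, with 2.91% called higher and 3.60% lower. At an unadjusted p under 0.05 there were 2783, in either direction. Striatal neuron markers were lower in 11 of 12 genes tested, with a median of -0.67, and 8 were lower at an unadjusted p under 0.05. Only Drd2, the dopamine receptor of striatal projection neurons, passed: it was at 11.66, 11.60 and 11.67 in the drug control pools and at 10.38, 10.24, 10.95, 10.43 and 10.28 in the brains, 2.28-fold lower (limma adjusted p 0.0127). The list's median by brain was -0.52, -0.95, -0.10, -0.94 and -0.998, so brain 13 was nearest the drug controls. Its summed intensity was 39405 to 84482 in the brains and 89099 to 92868 in the drug control pools. The median was -0.91, -0.39 and -0.66 in the treated ischemic pools and -0.50 in ischemic against control pools.

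Oligodendrocyte and myelin markers were higher in 13 of 13 genes, with a median of 0.49 against -0.05 for all probe sets. Of the 13, 1 passed as higher, beside 2.91% of all probe sets. Lpar1, a lysophosphatidic acid receptor, passed (2.01-fold, limma adjusted p 0.0447), and missed the threshold when any of 6 arrays was left out. The summed intensity of the list was 160163 to 210397 in the brains and 122198 to 147537 in the drug control pools. Choroid plexus and meningeal markers ran by brain from -0.33 (brain 11) to 0.71 (brain 12), and thalamic and hypothalamic markers from -0.66 (brain 11) to 0.51 (brain 16). Their part in the calls was not tested. The medians of the striatal, oligodendrocyte, immediate early, heat shock and cytokine lists kept their sign under the 22 alternatives tried on them, but the cytokine median came to 0.0051 with a filter on all 8 arrays; those of the choroid plexus and thalamic lists are given only as values.

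Blood cell markers were mixed. Neutrophil markers had a median of -0.11 over 17 genes, and 0.63 in ischemic against control pools; it was 0.20 against saline control pools and 0.19 with the deposited scale as a block. Mmp8 and Ngp were at the floor on all 8 arrays, and the summed intensity was 7020 to 10329 in the brains and 7218 to 13664 in the drug control pools. Mpo, the neutrophil peroxidase, fell, with 4 of 5 brains at the floor. Of 18 lymphocyte markers on the array 12 were tested, 6 higher and 6 lower. The median was -0.23, which turned to 0.11 against saline control pools. Among all probe sets 2.91% were called higher and 3.60% lower. Cd79b fell, and Klrd1, a natural killer cell receptor chain, fell by 1.03 (limma adjusted p 0.0137). Against saline control pools they differed by -0.63 and -0.08, and neither passed (limma adjusted p 0.780 and 0.965). The B cell marker Ms4a1 differed by -1.20 and did not pass, and the T cell markers Cd3d, Cd3e, Cd8a and Cd8b1 were at the floor on all 8 arrays. The summed intensity of lymphocyte markers was 6533 to 8836 in the brains and 8861 to 12790 in the drug control pools. Of 24 microglia and macrophage genes, Cd14, Lcp1 and Cd53 rose, the median was 0.00067, and the summed intensity was 55870 to 70912 against 54965 to 59527. Cell cycle genes had a median of -0.39, with Ccnb2, Mcm3 and Mcm5 lower, Ccnd3 higher and 20 others not past the test. Of the called genes in this paragraph, Cd14 and Klrd1 passed with any 1 array left out.

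Of 33 antioxidant, Nrf2 and metallothionein genes, Srxn1, which repairs peroxiredoxins, rose 1.52-fold (limma adjusted p 0.0358), a share near the 2.91% of all probe sets called higher. The list's median was 0.21, and -0.024 with the deposited scale as a block. Hmox1, heme oxygenase, was at 12.41, 12.35 and 12.72 against 12.48, 12.78, 12.24, 12.51 and 12.48, overlapping throughout. Sterol genes Idi1, Msmo1 and Fdps rose 2.07-fold, 1.69-fold and 1.41-fold among 21 tested. Ribosomal protein genes Rplp0, Rpl22 and Rpl19 rose by 0.53 to 0.65 among 22 tested, with a median of 0.23. Of 39 respiratory chain genes Ndufb8 and Ndufc1 rose, beside 2.91% of all probe sets, and the list's median changed sign with the processing. P4ha1, a hypoxia-induced collagen hydroxylase, rose 2.33-fold (limma adjusted p 0.00654) and, like Idi1 and Ndufb8 but no other gene of this paragraph, passed with any 1 array left out.

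**Figure D5:**
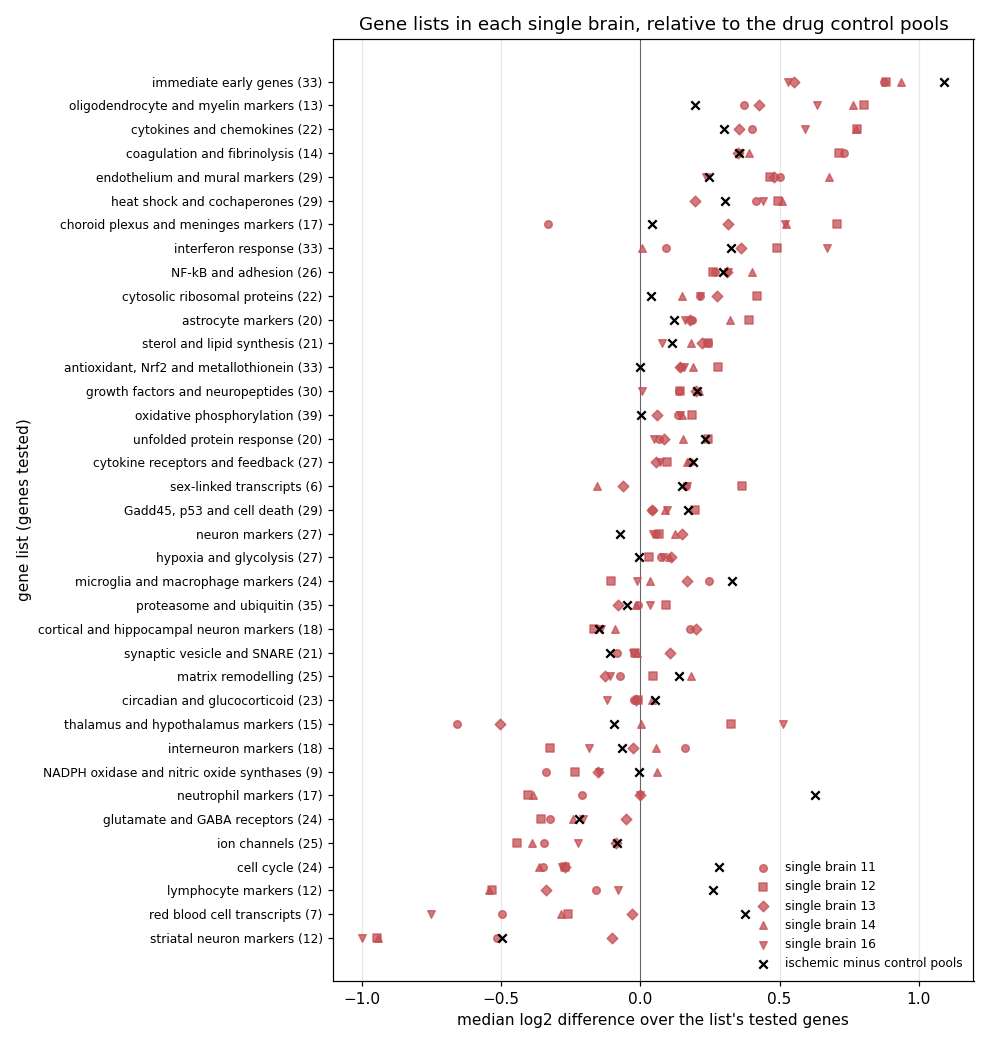
Median log2 difference of each gene list from the drug control mean in each single brain (5 marker shapes) and in ischemic minus control pools (black cross). Immediate early genes lie between 0.53 and 0.94 in the brains, oligodendrocyte markers between 0.37 and 0.80, and striatal markers below 0 with brain 13 nearest to it.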

How the data were processed

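mRNA was measured on Affymetrix mouse arrays of 12488 probe sets. The deposited values are linear intensities, 1 per probe set and array, some below 0; the authors' software and scaling: not given in the sources used here. Each array was brought to a trimmed mean of 2500 (2nd to 98th percentile), floored at 109.5 (25th percentile of the scaled pools) and log2-transformed. A fit tested those probe sets that exceeded the floor on 3 or more of its arrays, without 66 array controls. A probe set near the floor in 1 group could enter through the other, and its fold and p then depend on the floor. Of all probe sets 10855 had 1 gene symbol, 396 several and 1237 none.

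limma 3.58.1 in R 4.3.3 fitted single brains against drug control pools (6 residual and 2.09 prior degrees of freedom). Separate fits tested single brains against treated ischemic pools and the difference of responses, and ischemic against control pools. The last was a contrast within a fit of all pooled arrays, drug control pools included. Tests are two-sided, and p-values measure only the spread between these samples. On simulated data for the main comparison (9907 probe sets), 61% of 100 changes of 1 log2 and 95% of 100 changes of 2 log2 were recovered, and 9 unchanged probe sets were called. The simulation gave both groups the same normal spread and placed changes only in brighter probe sets. It left out the groups' differences in spread and scale, so it does not give the rates in these data. Arrays carry no depth; their number limits precision.

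Named genes were the top 18 rises and top 12 falls by size among calls with 1 symbol, both means above the floor and no overlap, up to 4 genes of each of 37 lists by p, and 5 in each direction of the other 2 tests. Other genes named were chosen after their values were seen. The arrays compared and the gene lists were chosen with earlier results of these data known. A gene of a list is represented by its brightest probe set. Figures were drawn with matplotlib 3.10.9 in Python 3.11.15.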

Additional observations from a re-analysis of the deposited data

Results flagged for a closer look

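In 8 of 85 genes past the threshold 1 brain stood apart from the other 4; chance gives about 1 in 20, a rate that does not hold for the 5 of them with 4 brains tied at the floor. Drd2 was 10.952 in brain 13 and 10.242 to 10.428 in the others. Mcm3 was 8.209 in brain 13 (others 8.847 to 9.031), and Ccnb2 was 9.41 in brain 16 (others 9.785 to 9.858). In the other 5 genes the remaining brains were all at the floor: Ager was 8.905 and Ctrb1 7.838 in brain 12, Mpo was 7.884 and Elovl1 6.78 in brain 14, and Chrnb2 was 6.882 in brain 13.

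Between single brains and treated ischemic pools, on the log2 scale, Csnk1d (2.97), Gpr3 (2.758), Bbs9 (2.429), an unnamed probe set (1.896) and Fbln1 (1.571) were higher in single brains. Tbx2 (-2.492), S100a5 (-1.489), Klk1b22 (-1.479), Cd36 (-1.137) and Stx3 (-1.1) were lower. For Gpr3, Bbs9, the unnamed probe set and Fbln1 all treated ischemic pools were at the floor, with no spread there. For Tbx2, Cd36 and Stx3 all brains were at the floor.

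The response of single brains exceeded that of ischemic pools for Cyp1b1 (4.276), Plekho1 (3.871), Pkdcc (3.817), Gpr3 (3.007), Inhbb (1.673) and Ifi30 (1.31). It was below it for an unnamed probe set (-3.345), Gfpt2 (-2.948), another unnamed probe set (-1.463) and Esr1 (-1.371). Cyp1b1, Plekho1, Pkdcc, Gpr3 and Inhbb were at the floor in all drug control pools, and Esr1 in all brains, so they had no spread there.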

How the results depend on the processing

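Counts of probe sets higher and lower in single brains, 288 and 357, became 568 and 201 with one median per array (all probe sets shifted by 0.13), 142 and 139 with the floor at the 10th percentile (raised to an intensity of 1), 397 and 538 with the floor at the 40th, 77 and 48 with all 17 arrays, 1 and 0 with the deposited scale as a block, 173 and 107 against all 6 control pools, 86 and 66 with array weights by group, 448 and 464 with trend and robust moderation, 531 and 633 with the actin ratio as a covariate, and 179 and 184 at 2-fold or more. As deposited they were 0 and 9825, or 114 and 39 relative to the median shift of -3.93. Against saline control pools, an alternative chosen after seeing the data, they were 39 and 5. Quantile normalization (315 and 258), no filter (301 and 341) and a filter on all 8 arrays (294 and 456) stayed within 1.5 times. Leaving out 1 array gave 117 to 422 higher and 97 to 577 lower, the fewest lower without drug control pool 3.

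Single brains against treated ischemic pools gave 10 calls, 2 to 615 with 1 array left out (615 without treated ischemic pool 3, 2 without pool 2) and 7 with pools 2 and 3. The difference of responses gave 10 calls, 11 after quantile normalization and 21 without drug control pool 1. Single brains share no replicate numbers with the pools; ischemic against control pools, which do, gave 22 calls and 35 with the replicate number as a block, 20 of them shared.

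Of 101 probe sets past the threshold that were followed, 37 passed whichever array was left out and 51 missed it in 5 or more of 8 such fits. With the scale block the sign turned for Tpm3 (-1.26), Ager (0.36), Chrnb2 (0.90), Msmo1 (-0.023) and Klf1 (0.015), and with saline controls for Hoxb7 (0.063) and Mcm5 (0.15); the cause was not tested.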

Other observations

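Probe sets with a suffix letter made up 16.0% of those higher, 30.5% of those lower and 20.4% of all tested. Col1a2, a collagen chain, fell by 0.81 by its brighter probe set and rose by 2.38 by another, both past limma's threshold (adjusted p 0.0294 and 0.008). Dgcr6 was the 1 other gene with calls in both directions (-0.87 and 0.61).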
